A study of Mus musculus with 6 samples.

Results

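The genes described here serve protein folding in the endoplasmic reticulum (ER) and the unfolded protein response, and they were taken as the rows of the deposited count table that carry 1 of 32 listed gene symbols. All 32 were found among 23453 gene rows, and all 32 passed the filter on low counts. The set holds ER chaperones and their co-chaperones, disulfide isomerases, the protein-conducting channel, the machinery that removes misfolded proteins, and the stress sensors with their transcription factors. Expression was measured by RNA sequencing of total RNA in splenocyte cultures from wild-type OT1 mice (strain C57BL/6), a line with a transgenic T cell receptor against OVA, and the cell type is labelled as cytotoxic T lymphocytes. Every culture received the OVA peptide for 48 h. It then received TCM for 8 h (3 libraries titled TCM) or FCM for 8 h (3 libraries titled Vehicle), and the labels expand neither abbreviation. The origin of the replicates is not stated, so p-values cover the spread among libraries alone and that spread may be technical.

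The 2 deposited tables contradict each other on which group is which. All 6 columns of the normalized table were a constant multiple of the equally numbered count column of the opposite title, and 0 matched their own title. The libraries are therefore called TCM-titled and Vehicle-titled after the count table, and every direction below reverses under the titles of the normalized table. No source at hand decides between the titles.

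Membrane and secreted proteins fold in the ER, where chaperones of the Hsp70 and Hsp90 families, lectin chaperones and disulfide isomerases assist them, and proteins that fail to fold are moved to the cytosol for degradation by the proteasome. Unfolded proteins activate 3 sensors in the ER membrane, IRE1 (gene Ern1), PERK (gene Eif2ak3) and ATF6. IRE1 splices the messenger RNA of Xbp1, ATF6 is cut to release a transcription factor, and PERK slows translation. XBP1 and ATF6 raise transcription of chaperone and degradation genes through the ER stress response element. Lymphocytes enlarge this machinery when they are activated and begin to secrete. Counts per gene do not show how much Xbp1 messenger RNA was spliced.

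The ER stress response element (ERSE) is the sequence that links many of these genes, and its matches are shown because they sit beside the expression values below. RefSeq promoters on GRCm38.p6 were at hand for 26 members, and the 250 bases before each start were searched on both strands. The ERSE motif, CCAAT followed after 9 free bases by CCACG, was found in 37 of 32851 promoters (0.113%). Among members, counted by gene rather than by promoter, 9 of 26 held it (34.6%). Because the members were listed as genes of the response that acts through this element, the shares are no test. The related ERSE-II, ATTGG followed after 1 free base by CCACG, was found in 10 of 32851 promoters (0.0304%) and in 1 member, Herpud1. The elements are written below 5′ to 3′ in the direction of the motif, with its fixed bases in capitals.
Hspa5: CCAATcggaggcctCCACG
Hsp90b1, farther from the start: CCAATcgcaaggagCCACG
Hsp90b1, nearer to the start: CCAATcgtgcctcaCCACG
Calr: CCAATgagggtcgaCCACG
Canx: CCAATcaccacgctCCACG
Pdia6: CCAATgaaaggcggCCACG
Dnajc3: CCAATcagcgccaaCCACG
Creld2: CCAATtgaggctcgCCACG
Syvn1: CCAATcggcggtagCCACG
Derl3: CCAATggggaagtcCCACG
Herpud1, ERSE-II: ATTGGgCCACG

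The matches lay between base 212 and base 26 before the start. Promoters of 4 members that hold an element are shown whole, because Herpud1, Hspa5 and Hsp90b1 were lower by different amounts and Calr did not pass the test. Capitals again mark the fixed bases of ERSE or ERSE-II, and a match on the other strand reads CGTGG to ATTGG.
Hspa5 (chr2:34771840-34772089, + strand): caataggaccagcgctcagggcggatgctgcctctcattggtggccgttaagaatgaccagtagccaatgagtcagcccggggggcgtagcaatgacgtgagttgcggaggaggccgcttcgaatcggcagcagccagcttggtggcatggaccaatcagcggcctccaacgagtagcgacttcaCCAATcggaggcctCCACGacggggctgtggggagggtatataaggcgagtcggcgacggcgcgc
Herpud1 (chr8:94386179-94386428, + strand): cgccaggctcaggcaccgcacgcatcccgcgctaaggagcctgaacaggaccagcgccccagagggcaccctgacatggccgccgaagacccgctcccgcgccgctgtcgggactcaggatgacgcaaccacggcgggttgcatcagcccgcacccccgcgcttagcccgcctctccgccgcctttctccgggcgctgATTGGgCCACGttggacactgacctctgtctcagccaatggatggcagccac
Hsp90b1 (chr10:86705445-86705694, − strand): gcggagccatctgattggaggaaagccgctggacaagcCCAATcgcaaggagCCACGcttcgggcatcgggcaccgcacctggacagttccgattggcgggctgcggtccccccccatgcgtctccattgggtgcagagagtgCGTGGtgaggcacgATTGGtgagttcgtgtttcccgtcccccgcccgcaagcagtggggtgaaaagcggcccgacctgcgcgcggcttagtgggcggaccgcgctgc
Calr (chr8:84846932-84847181, − strand): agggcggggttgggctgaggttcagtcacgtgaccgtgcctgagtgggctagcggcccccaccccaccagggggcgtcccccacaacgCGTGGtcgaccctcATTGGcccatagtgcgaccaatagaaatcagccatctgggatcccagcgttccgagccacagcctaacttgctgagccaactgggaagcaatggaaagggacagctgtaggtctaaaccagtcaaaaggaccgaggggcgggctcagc

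The exact letters TGACGTGG, used here as the core of the XBP1-bound element, were in 0 of the 26 promoters and in 0.563% of all promoters. Variants of it were not searched, and the Hspa5 promoter above holds TGACGTGA, which differs in the last base. The site of ATF4, TGATGCAA, was in 1 member, again Herpud1, and in 0.791% of all. The shorter CCAAT, which is contained in every ERSE, was in 22 of 26 members and 33.8% of all promoters. A match in these windows is a description of letters, not of binding.

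Total counts ran from 17166687 to 21197117 in TCM-titled libraries and from 18729982 to 25789381 in Vehicle-titled libraries, so that 1 count was worth 0.0388 to 0.0583 CPM (counts scaled to the library total) before further scaling. Members were well covered, with 102 counts (Derl3) as the lowest and 17703 (Calr) as the highest value of a member in a library. The replicate 1 libraries of both groups stood apart from the rest on the second principal component, which held 8.32% of the variance, while the first held 86.4% and separated the groups. CPM below are scaled by the trimmed mean of M-values (TMM), and p-values are from edgeR's quasi-likelihood test, adjusted over all 12423 genes tested. A gene passed at an adjusted p under 0.05.

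Of the 32 members, 16 were lower, 3 were higher and 13 did not pass in TCM-titled against Vehicle-titled libraries. The share lower was 50% of the members against 30.0% of all genes tested, the share higher 9.38% against 28.8%, and the share called in either direction was 58.8% of all genes. The median log2 fold change was -0.34 over the members and -0.02 over all genes. In 16 members every TCM-titled library lay below every Vehicle-titled one, and in 2 members every one lay above, where 33.6% and 30.6% of all genes did so. With the replicate number as a block the counts became 17 lower and 5 higher. The count of 3 higher members was 5 without TCM replicate 1 and 2 without TCM replicate 2, without TCM replicate 3 or without Vehicle replicate 1. The summed level of all members ran from 4478 to 4665 CPM in TCM-titled libraries and from 4901 to 5228 CPM in Vehicle-titled libraries. In bulk RNA, fewer cells of a type that expresses these genes and less RNA per cell cannot be told apart.

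**Figure D1:**
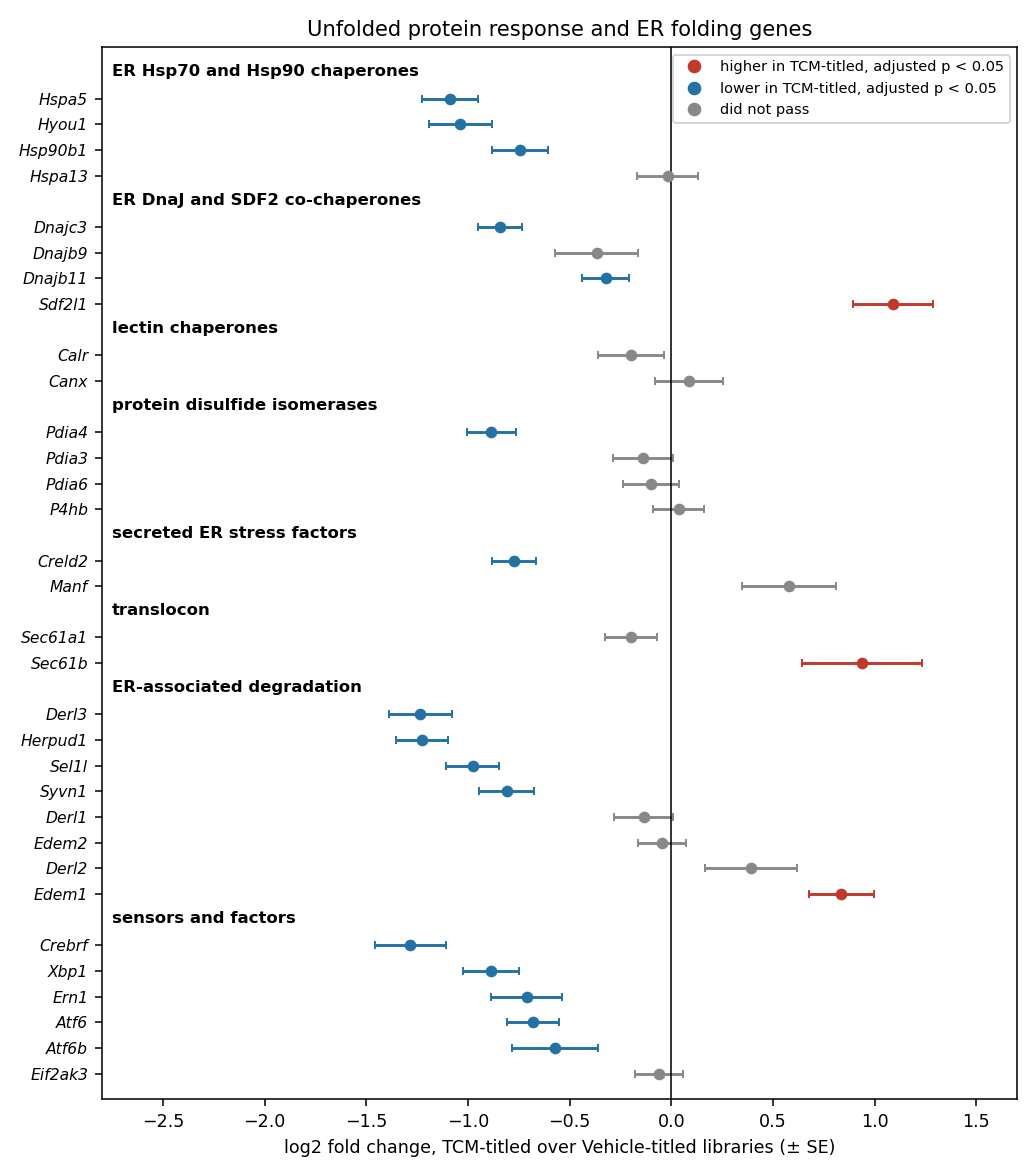
Log2 fold change (horizontal axis, TCM-titled over Vehicle-titled libraries, 3 each, bars ± SE) of the 32 members, grouped by role. Blue marks the 16 members that were lower, red the 3 that were higher and grey the 13 that did not pass.

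Markers of other cell types moved with the groups. The summed level of 13 neutrophil markers ran from 1545 to 2640 CPM in TCM-titled libraries and from 8854 to 13477 CPM in Vehicle-titled libraries, and 12 of 13 were lower. For 10 macrophage and monocyte markers the sums were 189 to 245 CPM in TCM-titled and 843 to 1086 CPM in Vehicle-titled libraries, with 7 lower and 1 higher. Most of these sums was Lyz2 and Ly6c2, at means of 32.7 and 102 CPM in TCM-titled and 414 and 436 CPM in Vehicle-titled libraries. Cd68 and Emr1 did not pass. B cell markers were at 979 to 1173 CPM in TCM-titled and 1791 to 2155 CPM in Vehicle-titled libraries, with 6 of 8 lower. Plasma cells have an unusually large ER, and their 8 markers, 1 of which is the member Derl3, summed to 1339.8 to 1801 CPM in TCM-titled and 1240.0 to 1575 CPM in Vehicle-titled libraries, with 4 higher and 3 lower. The 7 dendritic cell markers summed to 14.3 to 16.3 CPM in TCM-titled and 30.6 to 33.1 CPM in Vehicle-titled libraries, and Cd209a had 0 counts in both groups and Xcr1 in TCM-titled libraries. The 6 NK cell markers summed to 67.8 to 122 CPM in TCM-titled and 54.0 to 70.4 CPM in Vehicle-titled libraries, with Klra4 at 0 in both. Most of that sum was Gzma, at 61.2, 107 and 113 CPM in TCM-titled and 40.9, 53.6 and 58.2 CPM in Vehicle-titled libraries. Gzma was the 1 higher among 4 tested, whereas Ncr1 and Klre1 were lower by 0.75 and 0.82 on the log2 scale. The 8 erythroid and platelet markers summed to 5.32 to 7.19 CPM in TCM-titled and 11.2 to 12.95 CPM in Vehicle-titled libraries, with Hba-a2 at 0 in both and Hba-a1 in TCM-titled libraries. The 10 T cell markers, the check of the labelled cell type, were all detected and summed to 1111 to 1198 CPM in TCM-titled and 1048 to 1155 CPM in Vehicle-titled libraries, with 2 higher and 2 lower. Cd8a, the gene of a chain of the coreceptor of cytotoxic T cells, was lower by 0.67 on the log2 scale (adjusted p = 0.00115 in edgeR). Cd8b1, the gene of the other chain, did not pass, with a log2 change of 0.06 (adjusted p = 0.683 in edgeR). The kinase gene Zap70 was lower by 0.85, whereas Cd3d and Cd28 were higher by 0.76 and 0.51. These T cell genes are named after their values were seen. The part of the other cell types in the members' values was not tested.

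Of the 4 chaperones of the Hsp70 and Hsp90 families, 3 were lower (75%, against 30.0% of all genes tested). Hspa5 (chromosome 2, 34771970 to 34777547 in GENCODE M21 on GRCm38, which starts before the RefSeq gene) encodes BiP, the ER Hsp70 that binds unfolded chains and restrains the sensors. Its level was 203, 178 and 189.9 CPM in the TCM-titled libraries, against 405, 419.8 and 388 CPM in the Vehicle-titled libraries. All 3 TCM-titled values lay below all others, a log2 change of -1.09 ± 0.14 (SE, adjusted p = 0.00020). Hyou1, a large Hsp70 relative that exchanges nucleotide on BiP, had 97.5, 70.4 and 75.0 CPM in TCM-titled and 177, 160.1 and 161 CPM in Vehicle-titled libraries. It was lower by 2.05-fold (adjusted p = 0.000541). Hsp90b1, the ER Hsp90 known as GRP94, was 1.67-fold lower, with 154 ± 11.7 CPM in TCM-titled and 258 ± 17.6 CPM in Vehicle-titled libraries (SD, n = 3 each; adjusted p = 0.00163 in edgeR). Hspa13, a microsomal Hsp70 relative, stood outside this pattern with 15.7 ± 2.76 CPM in TCM-titled and 15.9 ± 1.54 CPM in Vehicle-titled libraries and a log2 change of -0.02 ± 0.15.

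Of the 4 co-chaperones, 2 were lower (50%, against 30.0% of all genes tested) and 1 was higher (25%, against 28.8%). Dnajc3, the J-domain protein P58IPK that also inhibits eIF2α kinases, had 22.3, 24.0 and 24.7 CPM in TCM-titled and 44.2, 42.1 and 41.0 CPM in Vehicle-titled libraries. The groups did not overlap, and the log2 change was -0.84 ± 0.11 (adjusted p = 0.00022). Its relative Dnajb11, the J-domain partner ERdj3 that BiP uses on nascent chains, was lower by 1.25-fold, at 90.5 ± 2.69 CPM in TCM-titled and 113 ± 2.65 CPM in Vehicle-titled libraries (SD, n = 3 each; adjusted p = 0.0376 in edgeR). That call was lost when any of TCM replicates 2 and 3 or Vehicle replicates 1, 2 and 3 was left out. It was also lost with DESeq2 size factors in edgeR, and adjusted p reached 0.132 over the alternatives. Dnajb9, the XBP1 target ERdj4, had 48.3, 66.9 and 76.1 CPM in TCM-titled and 63.1, 94.0 and 89.5 CPM in Vehicle-titled libraries. Its replicate 1 was the lowest of each group, and it did not pass (log2 change -0.37 ± 0.20, adjusted p = 0.149). With the replicate block it passed at -0.37 (adjusted p = 0.000826, and 1.09e-06 to 0.375 over the alternatives). It also passed without Vehicle replicate 1 (-0.53), without replicate 1 of both groups (-0.37), with library totals alone (-0.60) and with the length trend removed (-0.58).

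Sdf2l1 went the other way, although its product works in a complex with BiP and ERdj3. It had 110.0, 167 and 178 CPM in TCM-titled libraries and 61.3, 75.4 and 77.5 CPM in Vehicle-titled libraries. Every TCM-titled value was above every Vehicle-titled one, a 2.13-fold difference (log2 1.09 ± 0.20, adjusted p = 0.00153). Removing the trend of fold change on transcript length left a log2 change of 0.50 for this gene of 1.11 kb of exon. It passed the test under all alternatives to the fit (adjusted p at most 0.0103).

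**Figure D2:**
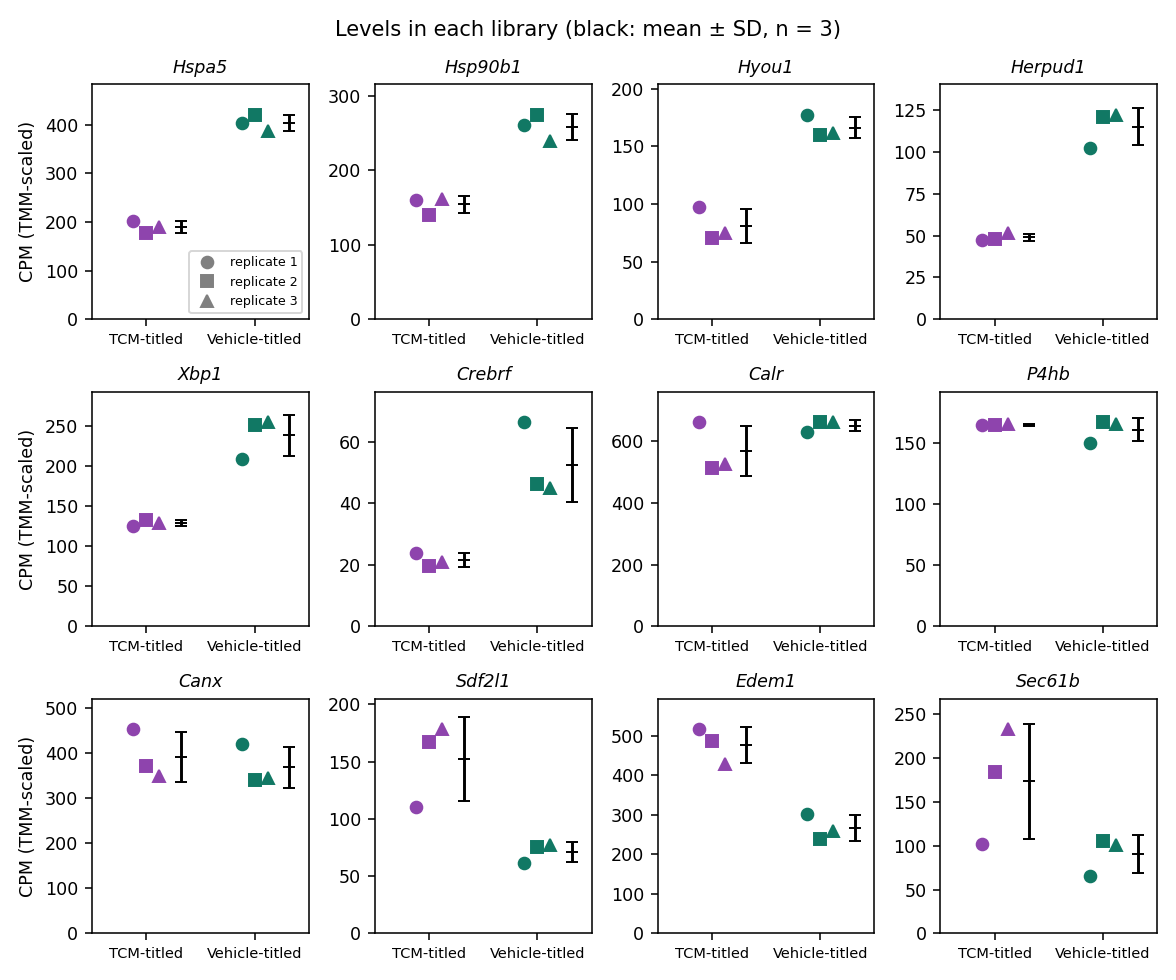
TMM-scaled CPM (vertical axis, starting at 0) of 12 members in each of the 6 libraries, TCM-titled left of Vehicle-titled, with a symbol per replicate and the mean ± SD in black. Hspa5, Hsp90b1, Hyou1, Herpud1, Xbp1 and Crebrf separate downward, Sdf2l1 and Edem1 upward, and Calr, P4hb, Canx and Sec61b overlap.

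The lectin chaperones did not pass the test. Calreticulin (Calr) and calnexin (Canx) hold newly made glycoproteins through their sugar. Calr had 662, 514 and 528 CPM in TCM-titled and 630.0, 662 and 663 CPM in Vehicle-titled libraries, and the groups overlapped (log2 change -0.20 ± 0.16). Without replicate 1 of both groups it passed at -0.36 (adjusted p = 0.000286), as it did with the length trend removed together with the replicate block. Canx overlapped as well, at 391.8 ± 54.7 CPM in TCM-titled and 369 ± 44.8 CPM in Vehicle-titled libraries (SD, n = 3 each), with a log2 change of 0.09 ± 0.17. Per kilobase of exon Calr was the most abundant member in both groups, at 197 CPM per kb in TCM-titled and 226 CPM per kb in Vehicle-titled libraries. On that scale Hspa5 ranked 11 in TCM-titled libraries (44.9 CPM per kb) and 3 in Vehicle-titled libraries (95.5 CPM per kb). Ern1, at 1.73 and 2.83 CPM per kb in TCM-titled and Vehicle-titled libraries, and Hspa13, at 2.30 and 2.33 CPM per kb in the same order, were the least abundant.

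Among 4 disulfide isomerases only Pdia4 passed, as lower (25%, against 30.0% of all genes tested). Pdia4, also called ERp72, had 44.8, 41.8 and 48.3 CPM in TCM-titled and 80.3, 89.7 and 79.3 CPM in Vehicle-titled libraries. The groups were fully separate, with a log2 change of -0.89 ± 0.12 (adjusted p = 0.000314). P4hb, the classical protein disulfide isomerase, had 165 ± 0.625 CPM in TCM-titled and 161 ± 9.25 CPM in Vehicle-titled libraries (SD, n = 3 each). Pdia3, the partner of the lectin chaperones and of MHC class I loading, and Pdia6, a further thioredoxin-fold isomerase, had log2 changes of -0.14 ± 0.15 and -0.10 ± 0.14, and Pdia3 passed at -0.24 without replicate 1 of both groups and also with the length trend removed together with the replicate block. Pdia3 and Pdia6 overlap other annotated genes, as do Pdia4, Hsp90b1, Manf, Derl2 and Syvn1, and with no stated strand setting reads from overlapping genes cannot be told apart.

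Creld2 and Manf encode small ER proteins that are released under ER stress. Creld2 had 16.7, 17.7 and 18.6 CPM in TCM-titled and 28.8, 30.3 and 31.4 CPM in Vehicle-titled libraries, 1.71-fold lower with no overlap (adjusted p = 0.000353). Manf ran the other way without passing, at 342, 516 and 603 CPM in TCM-titled and 261, 357 and 359.6 CPM in Vehicle-titled libraries (log2 change 0.58 ± 0.23, adjusted p = 0.0551). It passed with the replicate block at 0.56 (adjusted p = 1.68e-06, and 8.87e-07 to 0.186 over the alternatives) without TCM replicate 1 at 0.78, without replicate 1 of both groups at 0.63, with DESeq2 at 0.61 and with no filter at 0.57.

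Of the channel subunits, Sec61b (the β subunit) was higher and Sec61a1 (the pore) did not pass. Sec61b had 102, 185 and 233 CPM in TCM-titled and 65.5, 105 and 101 CPM in Vehicle-titled libraries. TCM replicate 1 lay within the range of the Vehicle-titled libraries, and the log2 change was 0.94 ± 0.29 (adjusted p = 0.0219). The call was lost without TCM replicate 2, without TCM replicate 3 or without Vehicle replicate 1 (0.90, 0.67 and 0.75), and with the length trend removed (0.39), where adjusted p reached 0.0755. Sec61a1 had 201, 185 and 182 CPM in TCM-titled and 210.3, 219 and 222 CPM in Vehicle-titled libraries, with no overlap and a log2 change of -0.20 ± 0.13 that did not pass. It passed at -0.28 without replicate 1 of both groups.

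Of 8 genes of ER-associated degradation, 4 were lower (50%, against 30.0% of all genes tested) and 1 was higher (12.5%, against 28.8%). Herpud1 (chromosome 8, 94386438 to 94395377), a membrane protein that assembles the degradation complex, had 47.6, 48.1 and 51.5 CPM in TCM-titled and 102, 121 and 122 CPM in Vehicle-titled libraries. It was 2.34-fold lower with no overlap and had the smallest adjusted p of the members, 6.49e-05. Syvn1, the ubiquitin ligase HRD1, was 1.75-fold lower at 109.9 ± 9.22 CPM in TCM-titled and 192 ± 14.2 CPM in Vehicle-titled libraries (SD, n = 3 each; adjusted p = 0.000982 in edgeR). Its adaptor Sel1l was 1.97-fold lower, with 39.6, 30.2 and 34.7 CPM in TCM-titled and 69.7, 70.1 and 65.9 CPM in Vehicle-titled libraries. Herpud1, Syvn1 and Sel1l, 3 parts of one complex, were thus each separate between the groups in the same direction, as were 33.6% of all genes tested. They are set together after their values were seen. Of the derlins of the same complex, Derl3 was lower too, whereas Derl1 and Derl2 overlapped and did not pass.

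Derlins are channel proteins of the same complex, and 1 of the 3 passed. Derl3 had 6.55, 6.68 and 6.13 CPM in TCM-titled and 12.2, 15.9 and 17.3 CPM in Vehicle-titled libraries, 2.35-fold lower (adjusted p = 0.000202). Derl1 did not pass, at 155 ± 20.1 CPM in TCM-titled and 170.4 ± 8.10 CPM in Vehicle-titled libraries (SD, n = 3 each). It passed at -0.24 with the length trend removed together with the replicate block (adjusted p = 0.0267 in edgeR). Derl2 did not pass either, at 98.6, 156 and 181 CPM in TCM-titled and 90.4, 122 and 119 CPM in Vehicle-titled libraries (log2 change 0.39 ± 0.23). It passed upward with the replicate block at 0.36 (adjusted p = 0.00151, and 4.79e-06 to 0.498 over the alternatives) without TCM replicate 1 at 0.61 and without replicate 1 of both groups at 0.47. The difference between derlins was not tested.

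EDEM proteins direct misfolded glycoproteins to degradation after mannose trimming. Edem1 (chromosome 6, 108828641 to 108859356) had 516, 487 and 427 CPM in TCM-titled and 302, 239 and 260.1 CPM in Vehicle-titled libraries. It rose 1.79-fold with no overlap (log2 0.84 ± 0.16, adjusted p = 0.00189) and kept this call under every alternative to the fit, with log2 changes of 0.63 at the lowest (library totals alone). Edem2 had 52.4 ± 3.44 CPM in TCM-titled and 54.0 ± 4.27 CPM in Vehicle-titled libraries (SD, n = 3 each), a log2 change of -0.04 ± 0.12. Edem1 was higher in the libraries in which Syvn1, Sel1l and Herpud1 were lower.

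Sensors and factors were lower in 5 of 6 cases (83.3%, against 30.0% of all genes tested), and the groups overlapped in 1 of these, Atf6b. Ern1, the IRE1 gene, had 18.5, 11.3 and 12.5 CPM in TCM-titled and 23.2, 23.2 and 23.0 CPM in Vehicle-titled libraries, a log2 change of -0.71 ± 0.17 (adjusted p = 0.00737). Atf6 was lower by 0.68 ± 0.13 on that scale, with 41.3 ± 5.35 CPM in TCM-titled and 66.2 ± 3.18 CPM in Vehicle-titled libraries (SD, n = 3 each; adjusted p = 0.00185 in edgeR). Eif2ak3, the PERK gene, did not pass, at 19.7, 16.9 and 17.5 CPM in TCM-titled and 20.6, 18.3 and 17.6 CPM in Vehicle-titled libraries. Of the 3 sensors, PERK thus showed a log2 change of -0.06 ± 0.12 beside changes of -0.71 and -0.68 for the other two.

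Xbp1 (chromosome 11, 5520659 to 5525893), the target of IRE1, had 125, 133 and 129 CPM in TCM-titled and 209, 251 and 255 CPM in Vehicle-titled libraries. It was 1.85-fold lower with no overlap (adjusted p = 0.000665). Crebrf (chromosome 17, 26715650 to 26776635), a negative regulator of the CREB3 family, showed the largest fold of all members. Its level was 23.9, 19.7 and 20.9 CPM in TCM-titled and 66.3, 46.1 and 44.9 CPM in Vehicle-titled libraries, 2.43-fold lower (adjusted p = 0.00029). Atf6b, the relative of ATF6, was at 159, 209.7 and 228 CPM in TCM-titled and 219.9, 345 and 322 CPM in Vehicle-titled libraries, where replicate 1 was the lowest of each group and the groups overlapped. It passed narrowly at -0.57 ± 0.21 (adjusted p = 0.0411 in edgeR). The call was lost without TCM replicate 1, TCM replicate 2, Vehicle replicate 2 or Vehicle replicate 3. It was also lost with DESeq2 size factors in edgeR, as was that of Dnajb11, which left 14 members lower. Over the alternatives its adjusted p reached 0.148.

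**Figure D3:**
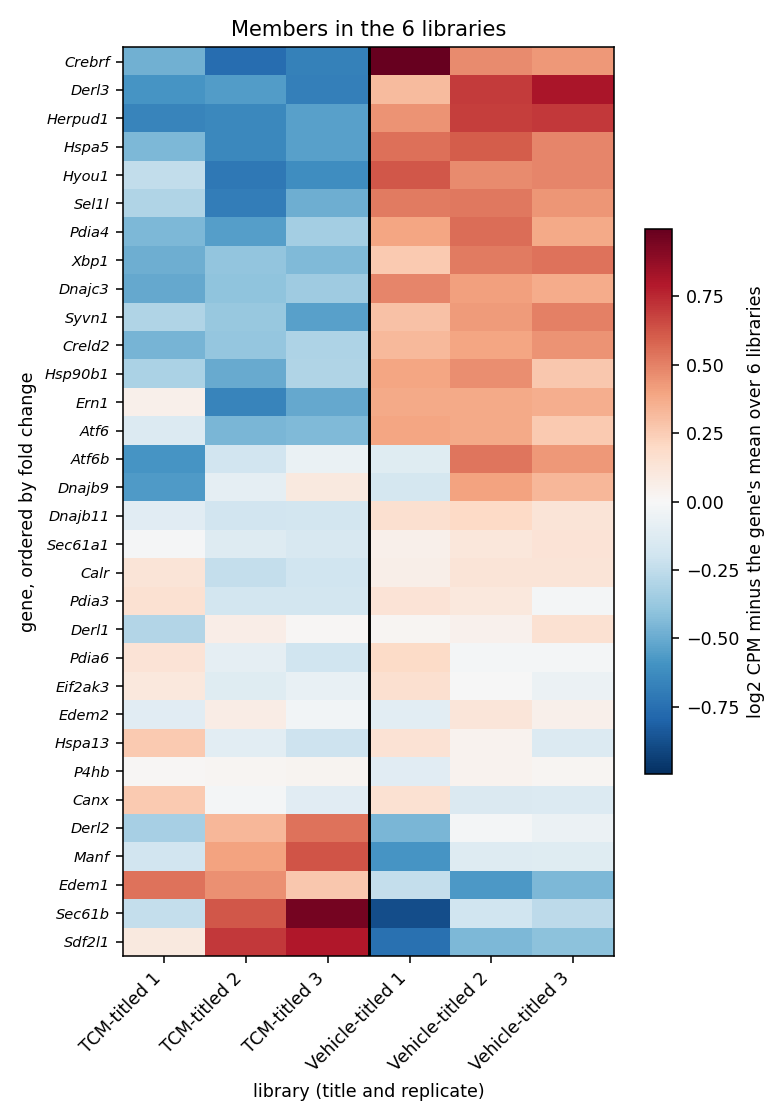
Log2 CPM of each of the 32 members minus the gene's mean over the 6 libraries (colour), with libraries across and genes down, ordered by fold change. Genes from Crebrf to Syvn1 are lower in each TCM-titled library, and in Sec61b, Manf, Derl2, Dnajb9 and Atf6b the replicate 1 libraries of both groups are lower than replicates 2 and 3.

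Replicate 1 differed from replicates 2 and 3 in a gene-dependent way. The ribosomal RNA precursor Rn45s moved with the same split: it took 11.6% of counts in TCM replicate 1, against 18.87% and 18.03% in TCM replicates 2 and 3, and 11.2% in Vehicle replicate 1, against 15.99% and 16% in Vehicle replicates 2 and 3. Its part in the members' values was not tested. Sec61b was lower in replicate 1 than in the mean of replicates 2 and 3 by a log2 difference of -1.02 in TCM-titled and -0.65 in Vehicle-titled libraries. Manf differed by -0.71 in TCM-titled and -0.46 in Vehicle-titled libraries, and Derl2 by -0.77 and -0.42 in the same order. Over all 32 members the median difference was 0.08 in TCM-titled and -0.07 in Vehicle-titled libraries. Without replicate 1 of both groups 20 members were lower and 5 were higher. Calls over all genes grew as well, to 4771 lower and 4566 higher of 12585 genes, against 3726 and 3584 of 12423 with all 6 libraries.

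Set beside the promoter sequences shown above, 7 of the 10 members with ERSE or ERSE-II were lower, 0 were higher and 3 did not pass (Calr, Canx and Pdia6), with a median log2 change of -0.79. Of 16 members whose promoter held neither, 7 were lower, 3 were higher and 6 did not pass, with a median of -0.23. The share lower was 50% over all members and 30.0% over all genes tested. The 2 classes overlapped widely, since Crebrf at -1.28, Sel1l at -0.98, Pdia4 and Xbp1 at -0.89 each lack an exact match and Canx at 0.09 has one. Hyou1, Hspa13, Manf, Sec61a1, Derl1 and Atf6 were not searched. The motifs were chosen with results known and the difference between the classes was not tested.

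**Figure D4:**
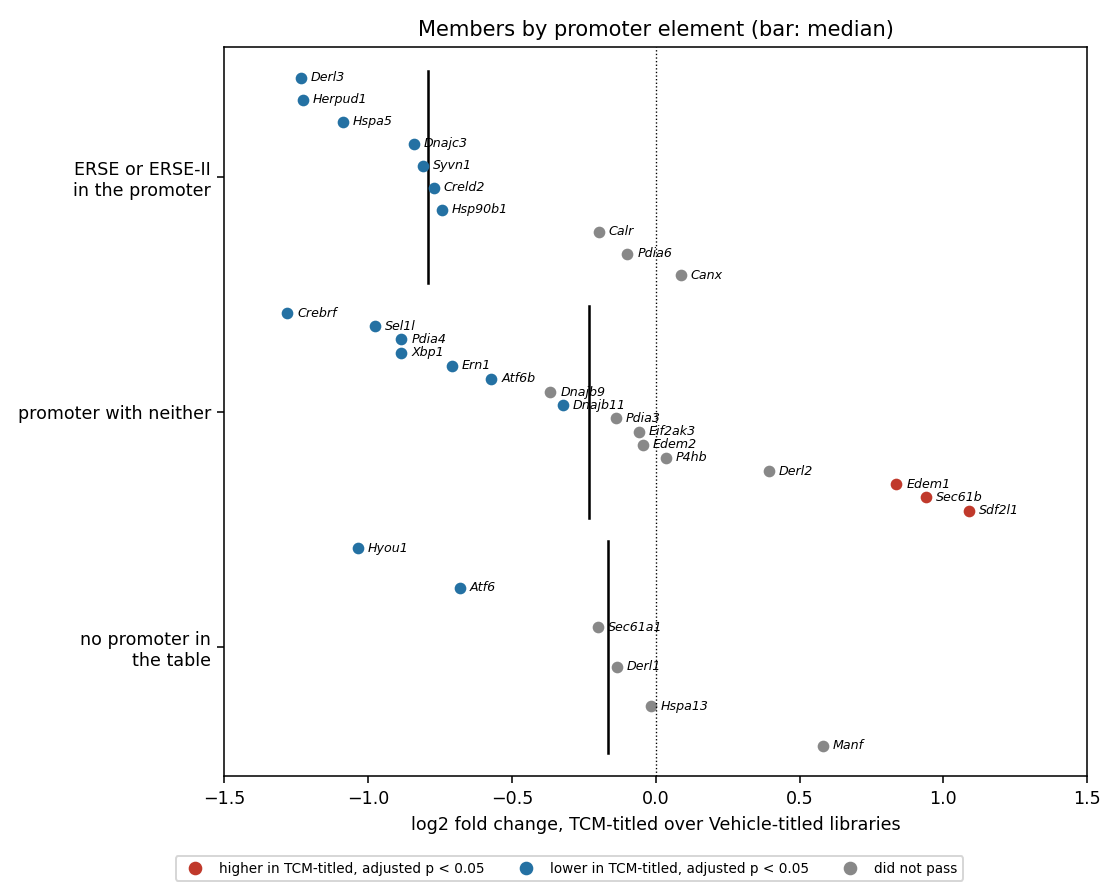
Log2 fold change (horizontal axis, TCM-titled over Vehicle-titled) of each member, in rows by whether the 250 bases before the start hold ERSE or ERSE-II, and with the median as a bar. The 10 genes with an element lie between -1.23 and 0.09, and the 16 with neither between -1.28 and 1.09.

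A wider circle of 104 ER genes, none of them a member, was set beside the 32, and 102 of these were tested. Of these, 30 were higher and 18 lower, with a median log2 change of 0.04. The share higher was 29.4%, close to the 28.8% of all genes tested, and the share lower was 17.6%, against 30.0% of all genes tested. No list below was tested as a set. Library totals alone, in place of TMM, gave 16 higher and 19 lower. The upward share of calls was then 45.7%, compared with 62.5% under TMM, for the members it was 15% compared with 15.8%, and for all genes it was 37.4% compared with 49.0%. That scaling moved the median of all genes to -0.23. With the replicate block 43 were higher and 30 lower, and without TCM replicate 1 the count of lower genes was 31. Over all genes the block gave 4509 higher and 4594 lower, and without TCM replicate 1 the count lower was 4199, against 3726 in the main test.

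Targets and partners of the PERK arm held 5 lower (50%, against 30.0% of all genes) and 1 higher (Atf3, 10% against 28.8%) among 10 genes. Atf4 did not pass, although its groups did not overlap (log2 change -0.37 ± 0.16, adjusted p = 0.0717 in edgeR). Trib3, a pseudokinase induced through ATF4 and CHOP, had 28.2 ± 4.54 CPM in TCM-titled and 122 ± 10.1 CPM in Vehicle-titled libraries (SD, n = 3 each), a log2 change of -2.12 ± 0.16. Ddit3, which encodes CHOP itself, changed by -1.11 ± 0.13 and Nfe2l2, the gene of the antioxidant factor NRF2, by -1.06 ± 0.13, with adjusted p of 0.000122 and 0.000209. The messenger of Eif2ak3 itself did not pass. Messenger levels do not show the activity of PERK, which was not measured.

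In signal peptide processing and translocation 10 of 18 were higher (55.6%, against 28.8% of all genes) and 3 lower (16.7%, against 30.0%), with a median of 0.60. Sec11a, the catalytic subunit of signal peptidase, had 212 ± 58.0 CPM in TCM-titled and 107 ± 9.24 CPM in Vehicle-titled libraries (SD, n = 3 each), a log2 change of 0.98 ± 0.21. Ssr3 of the translocon-associated complex rose by 0.73 ± 0.14, and Sec62, a translocation factor, fell by 0.64 ± 0.13 to 25.0 ± 1.96 CPM in TCM-titled, against 39.0 ± 4.14 CPM in Vehicle-titled libraries. With library totals alone the list had 3 higher and 3 lower, and with the length trend removed 11 higher and 3 lower.

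Of 13 oxidative folding enzymes outside the member list, 7 were higher (53.8%, against 28.8% of all genes) and 2 lower (15.4%, against 30.0%). Prdx4, the ER peroxiredoxin, had 55.02 ± 12.9 CPM in TCM-titled and 18.1 ± 1.02 CPM in Vehicle-titled libraries (SD, n = 3 each), a log2 change of 1.60 ± 0.18. Qsox1, a sulfhydryl oxidase, rose by 1.03 ± 0.14, whereas Ero1lb, an oxidase that recharges disulfide isomerases, changed by -1.20 ± 0.16, with 33.6 ± 5.45 CPM in TCM-titled and 77.2 ± 11.6 CPM in Vehicle-titled libraries. Of 4 prolyl isomerases tested, Ppib (0.76 ± 0.15) and Fkbp11 (1.21 ± 0.21) rose (50%, against 28.8% of all genes) and 0 were lower. With the replicate block all 4 rose. Levels were low for Fkbp11, at 2.18 CPM in TCM-titled and 0.937 CPM in Vehicle-titled libraries on average, and for Fkbp7, at 1.17 and 0.666 CPM in the same order. With the length trend removed the oxidative list had 6 higher and 3 lower, and with library totals alone 4 higher and 3 lower.

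In N-glycosylation 3 of 14 were higher (21.4%, against 28.8% of all genes) and 1 lower (7.14%, against 30.0%). Stt3a, a catalytic subunit of the oligosaccharyltransferase, rose by 0.76 ± 0.15, Ostc of the same complex rose by 0.71 ± 0.20, and Uggt1, the folding sensor that returns glycoproteins to the lectin chaperones, changed by -0.58 ± 0.13. The Ostc call was lost without TCM replicate 2, TCM replicate 3 or Vehicle replicate 2, and the Uggt1 call with the length trend removed. In further ER-associated degradation 1 of 16 was higher (Vimp, 0.54 ± 0.13) and 2 were lower, Vcp (-0.66 ± 0.14), the ATPase that pulls substrates out of the membrane, and Ubxn4 (-0.68 ± 0.17). These shares, 6.25% higher and 12.5% lower, were both below those of all genes. The Vimp call was lost with library totals alone (0.32) and with the length trend removed (0.096), where adjusted p reached 0.622. With the replicate block this list had 4 higher and 7 lower.

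Of 18 tested genes for ER exit and retrieval 2 rose, Sar1b (1.13 ± 0.17), a GTPase of COPII vesicles, and Kdelr2 (0.92 ± 0.21), a receptor that returns chaperones to the ER. Sec16a, which organises exit sites, was lower by 0.76 ± 0.12, and Sec24d was the other that fell. The shares higher and lower were 11.1% each, against 28.8% and 30.0% of all genes. Atf3, Atf4, Fkbp7 and Sec24d are named here after their values were seen. With the replicate block the list had 5 higher and 6 lower. Of 9 ER calcium genes 4 rose (44.4%, against 28.8% of all genes) and 3 fell (33.3%, against 30.0%). Tmco1, a calcium release channel, was at 1.12 ± 0.22 and the inositol trisphosphate receptor genes Itpr2 and Itpr3 were at -0.80 ± 0.15 and -0.63 ± 0.13. The calls on Itpr2 and Itpr3 were lost with the length trend removed, and the list then had 4 higher and 1 lower, against 1 higher and 3 lower with library totals alone.

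**Figure D5:**
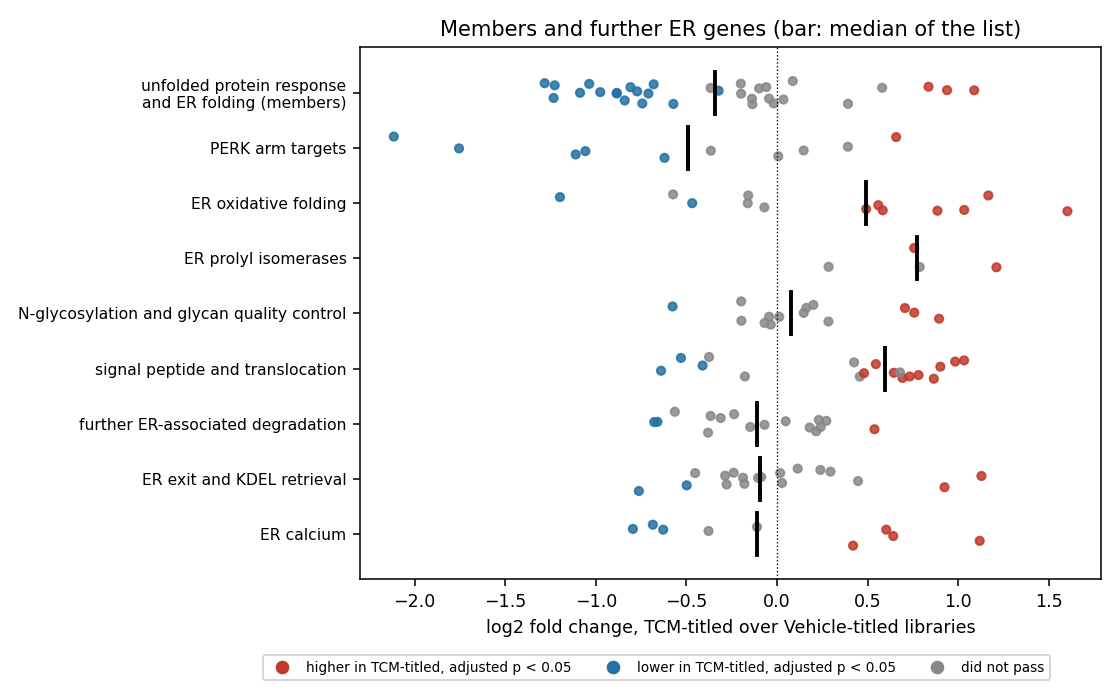
Log2 fold change (horizontal axis, TCM-titled over Vehicle-titled) of the members and of 8 further ER lists, a point per gene tested and a bar at each median. Members and PERK arm targets have medians of -0.34 and -0.49, oxidative folding and signal peptide genes 0.49 and 0.60.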

How the data were processed

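The authors deposited raw counts of exon reads for each gene symbol and library. They also deposited a normalized signal, in which each library's counts are divided by a constant. After division by what 1 read is worth, 100% of its values came out whole (tolerance 0.1 reads). Build mm10, DESeq2 1.28.1 and STAR 2.7.2d are named, per the submitters' processing notes, without their roles. The counting tool, annotation and strand setting were not found. Reads of near-identical copies may be split.

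The 92 spike-in rows held 0 counts and were left out. Genes kept by edgeR's filterByExpr were scaled with TMM and tested with its quasi-likelihood test (edgeR 4.0.16, R 4.3.3), the group as sole term, with Benjamini-Hochberg adjustment over 12423 genes. A standard error is the log2 fold change divided by the square root of F. The common biological coefficient of variation was 15.3%. edgeR on reads recovered from the normalized table, grouped by its own titles, called 3726 genes higher and 3584 lower. Lengths are pooled GENCODE M21 exons. No libraries were duplicates, with a chi-square per gene of 4.87 to 104 between replicates. Deviations of same-numbered libraries from their group means correlated at 0.60, 0.146 and 0.36 over 12423 genes. However, TCM replicate 2 correlated more with Vehicle replicate 3 (0.266), and TCM replicate 3 more with Vehicle replicate 2 (0.424). Pairing by number was thus borne out for replicate 1 alone. The replicate number entered as a block in alternative fits only, and the main p-values do not use it. The test was tried on simulated counts.

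Members and lists were chosen with earlier results of these data known. All members are named, and of each further list the 3 called genes with the smallest p. Alternatives were DESeq2 1.42.0, other scalings, no filter, a stricter threshold, left-out libraries, the block, a removed length trend and the other titles.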

Additional observations from a re-analysis of the deposited data

How the results depend on the processing

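Of the 32 members, 17 kept their direction and their side of the threshold under every alternative fit grouped by the count table, and 15 did not in at least 1. No member that passed changed sign in those fits. Counts of members higher and lower (3 and 16) became 5 and 20 without replicate 1 of both groups, 5 and 17 with the replicate block, 5 and 20 with the length trend removed together with the block, 16 and 3 under the titles of the normalized table, and ran from 2 to 5 and from 14 to 16 as single libraries were left out. With DESeq2 size factors in edgeR they were 3 and 14. The members' median of -0.34 was -0.56 with library totals alone (all genes -0.23), -0.44 with the length trend removed, with or without the block, and 0.34 under the other titles. Further ER genes (30 higher, 18 lower, median 0.04) had 16 higher and a median of -0.18 with library totals alone. Lower calls among them numbered 36 without replicate 1 of both groups, 30 with the block, 29 with length trend and block together, and 15 to 31 leaving out single libraries. Calls over all genes also rose, from 7310 to 9337 without replicate 1 of both groups, to 9103 with the block and to 8692 with length trend and block together. The cause of these shifts was not tested. Genes that changed sign had not passed. Hspa13 was at 0.016 with DESeq2 size factors, 0.0094 with DESeq2 and 0.14 with the length trend removed, with or without the block, and ran from -0.17 to 0.083 leaving out libraries. Canx was at -0.12 and P4hb at -0.17 with library totals alone. P4hb was at -0.020 without replicate 1 of both groups and at -0.13 with the length trend removed, with or without the block. Eif2ak3 was at 0.088 with the length trend removed, with or without the block. Leaving out libraries, Canx ran from -0.028 to 0.19, P4hb from -0.016 to 0.067, Edem2 from -0.11 to 0.0095 and Eif2ak3 from -0.13 to 0.0025. Besides Dnajb9, Manf and Derl2, the replicate block changed no member's call.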

Other observations

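Outside the member list 35 genes not on chromosome 18 held ERSE or ERSE-II in the same promoter window, of which 10 were tested, with 3 lower, 1 higher and 6 not passing (median log2 change -0.13). Of all genes tested 30.0% were lower, so 3 of 10 is no more than the background. This list was chosen after the data were seen. Alg12, a mannosyltransferase of ER glycan assembly, was among the lower ones at -0.79 ± 0.13 (SE, adjusted p = 0.00103 in edgeR). Its element lies at chr15:88819520-88819538 on GRCm38.p6, the same bases as that of the neighbouring member Creld2, which is transcribed from the other side and was lower by 0.77 on the log2 scale. The other two were Ero1lb (adjusted p = 0.000302) and Pan2, a deadenylase subunit, at -1.36 ± 0.12. Lgalsl, a galectin-like gene, was higher at 0.76 ± 0.16.

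With the tested genes that have an annotated exon length put in 5 classes of nearly equal size by that length, the median log2 change was 0.42 in the shortest class and -0.31 in the longest. Among members the shortest class held Sdf2l1 and Sec61b, which were higher, beside Creld2, Herpud1 and Derl3, which were lower, with a median of -0.77. In the longest class Sel1l, Ern1, Atf6 and Crebrf were lower and Derl2 did not pass, with a median of -0.71.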
